A study of Mus musculus with 3 samples.

Results

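Crem, Ramp3 and Pde4d, from a set of 9 cyclic AMP (cAMP) response genes, were 22.8, 47.3 and 4.80 times as abundant in CD4+ T cells from a B16-F10 tumour library as in CD4+ T cells from lymphoid organs, while Creb1 and Prkar1a were at nearly the same level in both in values scaled to the median gene. The 9 genes were Crem, Creb1, Ramp3, Ptger4, Ptger2, Pde3b, Pde4b, Pde4d and Prkar1a. They were chosen by symbol among 23337 gene symbols, with the values of these libraries known, so their own values are given as a description and without a test. The study measured RNA from cells labelled Th1, the T helper subset that makes interferon gamma, to ask how a tumour's surroundings affect gene expression and splicing. The tumour group held 1 library, from cells isolated from B16-F10 tumours, a transplantable mouse melanoma. The lymphoid group held 2 libraries, titled as spleen and labelled by tissue as spleen with lymph nodes, draining ones included. The mice were C57/Bl6j, wild-type in genotype and 7 weeks old for all 3 libraries. Whether the libraries came from separate animals or from pools is not stated in the labels, so p-values rest only on how far these libraries differ, which could be technical. The tumour group has no replicate.

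cAMP is a second messenger made by adenylyl cyclases when a receptor coupled to the G protein Gs is engaged. It binds the regulatory subunits of protein kinase A and frees the catalytic subunits, which phosphorylate transcription factors of the CREB family. Phosphodiesterases end the signal by hydrolysing cAMP. In T cells the pathway is known for restraining signalling from the T cell receptor, and prostaglandin E2 is a well-known ligand that raises cAMP in them. Crem encodes activators and repressors of the CREB family, among them ICER, a short repressor made from an internal promoter that cAMP induces.

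Levels are FPKM, fragments scaled by transcript length and library size, divided by median-of-ratios factors of 0.58 for the tumour library and 1.29 and 1.33 for lymphoid libraries 1 and 2, and are called scaled FPKM. The scaling matters: as deposited, the median tested gene differed by a log2 value of -0.96 between tumour and lymphoid libraries, and after scaling by -0.01. From the smallest steps between low values, depth was estimated as 3270000 fragments in the tumour library and as 11460000 and 15630000 in the lymphoid libraries. Genes of odorant and vomeronasal receptors, which T cells are not known to use, averaged 0.154 FPKM in the tumour library, against 0.0129 and 0.0582 in the lymphoid ones, all as deposited. The 8 T cell marker genes summed to 648 scaled FPKM in the tumour library, against 688 and 683 in the lymphoid ones, with 0 of 8 called. The 5 Th1 markers summed to 116.9, against 130.8 and 122.2. Of these, Ifng, the interferon gamma gene, was at 4.53, against 12.9 and 12.0, and was called lower (limma adjusted p = 0.00535, and 0.230 with counting error), while Tbx21, Cxcr3, Il12rb2 and Stat4 were not called. Macrophage and monocyte markers moved with the tumour library. The 10 genes of that list summed to 9.85 scaled FPKM there, against 1.19 and 1.02 in the lymphoid libraries, and Itgam, the 1 gene of the 10 to pass the filter for testing, made up 3.95 of the tumour sum. C1qb and C1qc were listed at 0 in the tumour library and Csf1r was at 0.133. The 5 B cell markers summed to 0.646, against 0.757 and 0.530, and the 7 melanoma markers to 3.35, against 1.35 and 1.49. The 5 CD8 T and NK cell markers summed to 21.97, against 24.8 and 21.8. Among them Cd8b1, a CD8 coreceptor chain, was at 4.77, against 0.494 and 0.783, from about 13.4 tumour fragments. Its partner Cd8a was at 0.503, against 0.0647 and 0.0304. Only about 2.9 tumour fragments stand behind Cd8a, which lay below the filter for testing. The NK receptor gene Klrb1c was at 13.4, against 23.6 and 20.1. The part of such cells in the results that follow was not tested. In bulk RNA, fewer cells of a type and less RNA per cell cannot be told apart.

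Promoter sequences are shown for genes at the ends of the pathway, because CREB proteins bind the cAMP response element (CRE). The letters searched were the full element TGACGTCA and its core TGACG, on both strands, where a full element counts as 1 core. The window was the 250 bases before each RefSeq start on GRCm38.p6, and stretches that overlap an annotated exon are not shown. Capitals mark the cores and full elements.
Ramp3, chr11:6658283-6658520, plus strand: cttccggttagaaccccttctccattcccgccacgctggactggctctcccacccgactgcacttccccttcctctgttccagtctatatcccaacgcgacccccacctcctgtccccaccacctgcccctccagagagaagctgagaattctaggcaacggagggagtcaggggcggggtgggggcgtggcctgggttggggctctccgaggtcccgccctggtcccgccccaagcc
Ptger4, chr15:5244188-5244437, minus strand: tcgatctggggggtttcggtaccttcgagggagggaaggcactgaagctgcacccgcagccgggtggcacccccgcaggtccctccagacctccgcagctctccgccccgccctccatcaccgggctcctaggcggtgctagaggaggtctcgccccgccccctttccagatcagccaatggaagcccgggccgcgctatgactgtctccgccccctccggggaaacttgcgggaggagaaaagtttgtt
Prkar1a, chr11:109650699-109650920, plus strand: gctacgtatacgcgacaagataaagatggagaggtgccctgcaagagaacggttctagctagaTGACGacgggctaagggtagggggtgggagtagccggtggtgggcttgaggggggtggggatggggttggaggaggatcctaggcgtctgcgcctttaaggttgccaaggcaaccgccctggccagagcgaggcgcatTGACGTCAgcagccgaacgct
Nr4a1, chr15:101266596-101266845, plus strand: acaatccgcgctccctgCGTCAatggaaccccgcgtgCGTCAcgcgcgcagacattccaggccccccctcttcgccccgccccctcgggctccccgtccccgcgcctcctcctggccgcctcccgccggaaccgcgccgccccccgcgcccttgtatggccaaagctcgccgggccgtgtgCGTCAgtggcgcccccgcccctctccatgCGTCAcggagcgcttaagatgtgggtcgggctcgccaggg
Rgs2, chr1:144004162-144004399, minus strand: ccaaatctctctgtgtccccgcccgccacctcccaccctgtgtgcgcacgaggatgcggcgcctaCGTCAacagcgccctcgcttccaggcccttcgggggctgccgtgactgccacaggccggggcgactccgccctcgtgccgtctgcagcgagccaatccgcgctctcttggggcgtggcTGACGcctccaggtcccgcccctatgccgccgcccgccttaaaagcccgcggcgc
Per1, chr11:69099902-69100151, plus strand: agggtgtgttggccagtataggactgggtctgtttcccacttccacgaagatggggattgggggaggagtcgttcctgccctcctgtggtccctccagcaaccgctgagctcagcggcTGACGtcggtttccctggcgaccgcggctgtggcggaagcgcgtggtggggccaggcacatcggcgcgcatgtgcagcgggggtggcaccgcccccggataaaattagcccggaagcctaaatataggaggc
Ramp3 encodes a receptor partner and Ptger4 a prostaglandin receptor, and their windows held no core. The Prkar1a window shown, 1 of 6 starts listed for this regulatory subunit of protein kinase A, held the full element 49 bases before the start and a further core at 187. Nr4a1, Rgs2 and Per1 are classic CREB target genes, described further on. The Nr4a1 window held 4 cores, at 233, 213, 69 and 40 bases before the start, while Rgs2 held 2 and the Per1 window shown held 1. Of all 32851 windows in the table, 17.8% held a core, 2.74% held 2 or more and 1.55% held the full element. Among the 9 genes, 7 had a start in the table, and 2 of these, Prkar1a and Pde4b, held a core in at least 1 window. This count is per gene, over 1 or more windows, while the shares above are per window. Crem and Pde3b had no start in the table, so their promoters were not searched. A match is only a match of letters, and no match says only that these letters are not in this window.

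Crem had the highest level of the 9 genes in the tumour library after Prkar1a, and was among the 3 lowest in both lymphoid libraries. Crem (ENSMUSG00000063889.16, chromosome 18, 3266048 to 3337748, GRCm38) was at 34.7 scaled FPKM in the tumour library, against 1.86 and 1.18 in the lymphoid libraries. The tumour value was 18.7 and 29.4 times the lymphoid ones, and the log2 difference on the scaled FPKM + 1 scale was 3.84. The lymphoid libraries differed from each other by 0.39 on that scale. Crem had rank 26 from the top among 9800 tested genes, 99.7% of which lay below it. About 76 tumour fragments stand behind the value at the median transcript length of 1160 bases, and between 28.6 and 193 over the annotated transcript lengths. An exact Poisson interval of 95% on 76 fragments gives 27.2 to 43.3 scaled FPKM, which covers counting error only. The file gives 1 value for the gene, so that ICER and the longer forms cannot be told apart. Exons of Crem overlap Gm6225 on the other strand. The library kit marks strand, but whether the counting used it is not given in the sources used here.

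Creb1, which encodes the constitutive activator CREB, did not share this difference. Creb1 (ENSMUSG00000025958.14, chromosome 1, 64532645 to 64604548) was at 9.74 scaled FPKM in the tumour library, against 10.4 and 8.56 in the lymphoid libraries, so that the tumour value lay between them. Within a library the ratio of 2 genes does not depend on the scaling between libraries. The ratio of Crem to Creb1 was 3.56 in the tumour library, against 0.178 and 0.138 in the lymphoid libraries. Of the summed FPKM of Crem, Creb1 and Atf1, the third member of the family, Crem held 64.6% in the tumour library, against 8.52% and 6.21% in the lymphoid ones. Atf1 was at 9.27 scaled FPKM in the tumour library, against 9.53 and 9.28 in the lymphoid libraries, and was not called. Crem was thus the most abundant of the 3 genes in the tumour library and the least abundant in both lymphoid libraries.

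Ramp3 showed the largest difference of the 9 genes. It encodes a single-pass membrane protein that joins the calcitonin receptor-like receptor to form a receptor for adrenomedullin, which signals through cAMP. Ramp3 (ENSMUSG00000041046.7, chromosome 11, 6658521 to 6677475) was at 26.4 scaled FPKM in the tumour library, against 0.580 and 0.537 in the lymphoid libraries. The log2 difference was 4.14, rank 20 among 9800 tested genes, and the lymphoid libraries differed by 0.04. Ramp3 has 1 coding transcript length of 1233 bases, which puts about 62 tumour fragments behind the value, with a counting interval of 20.3 to 34.0 scaled FPKM. About 10.6 and 13.8 fragments stand behind the lymphoid values, and Ramp3 passed the filter of a mean of 1 FPKM only through its tumour value. The partner receptor gene Calcrl was at 5.40 scaled FPKM in the tumour library, against 4.16 and 3.16 in the lymphoid libraries, and was not called (limma adjusted p = 0.131). Ramp1, whose product makes the same receptor respond to calcitonin gene-related peptide, was at 3.50 in the tumour library, against 3.43 and 4.51. Ramp2 was listed at 0 in all 3 libraries. Of the summed FPKM of the 3 RAMP genes, Ramp3 held 88.3% in the tumour library, against 14.5% and 10.6% in the lymphoid ones. The ligand gene Adm was at 1.18 scaled FPKM in the tumour library and listed at 0 in both lymphoid libraries. The Adm value rests on about 3.1 tumour fragments and lay below the filter for testing, so nothing is read from it.

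**Figure D1:**
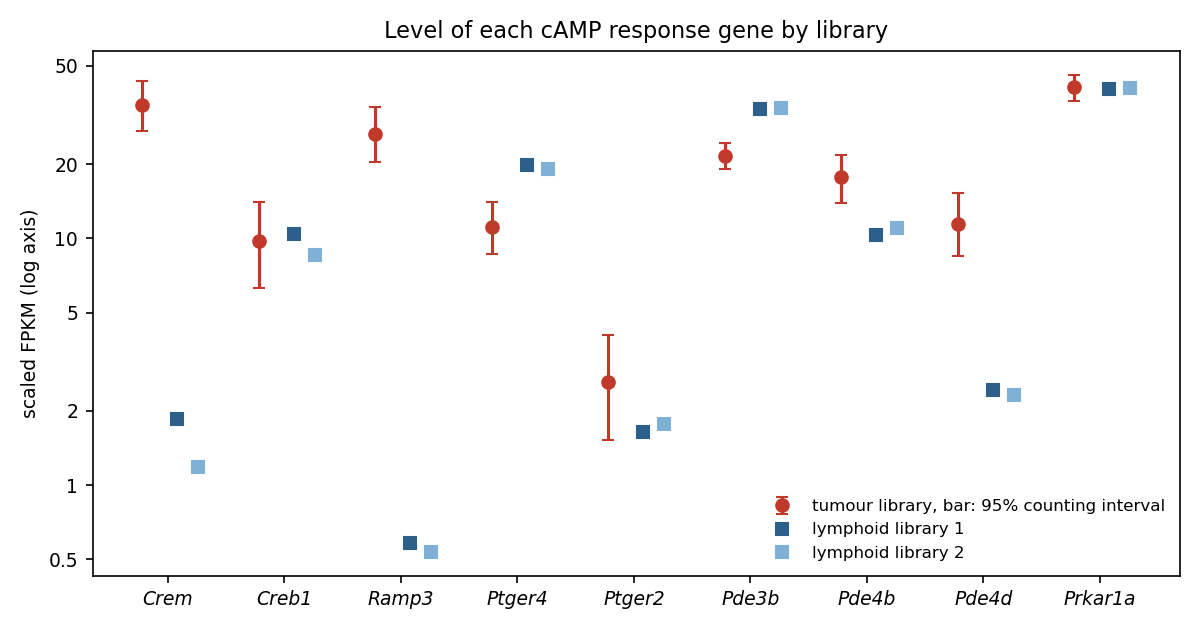
Level of each of the 9 genes in scaled FPKM (log axis), with the tumour library as a circle and its 95% counting interval as a bar, and the 2 lymphoid libraries as squares. Crem, Ramp3 and Pde4d lie above both lymphoid squares by the widest gaps, Ptger4 and Pde3b lie below them, and Prkar1a is level at about 40.9 in tumour against 40.5 and 40.7.

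Of the Gs-coupled prostaglandin E2 receptor genes, Ptger4 lay below its lymphoid levels in scaled values, and Ptger2 showed no detectable difference. Ptger4 encodes EP4, the more abundant of the Gs-coupled prostaglandin E2 receptors in all 3 libraries. Ptger4 (ENSMUSG00000039942.15, chromosome 15, 5206661 to 5244187) was at 11.1 scaled FPKM in the tumour library, against 19.9 and 19.0 in the lymphoid libraries. Its counting interval of 8.62 to 14.0, from about 69 fragments, lay below both lymphoid values. Ptger2, which encodes EP2 (ENSMUSG00000037759.6, chromosome 14, 44988195 to 45003820), was at 2.61 scaled FPKM in the tumour library, against 1.64 and 1.78 in the lymphoid libraries. The Ptger2 interval of 1.53 to 4.07, from about 18 fragments, covered both lymphoid values, so a difference was not detectable at this depth. The ratio of Ptger4 to Ptger2 was 4.25 in the tumour library, against 12.1 and 10.7 in the lymphoid ones. Exons of Ptger4 overlap Ttc33 and Gm15937 on the other strand, and those of Ptger2 overlap Gm17173 and Gm49364, again on the other strand.

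Of the other Gs-coupled prostanoid receptor genes, Ptgdr encodes the prostaglandin D2 receptor DP1. It was at 4.13 scaled FPKM in the tumour library, against 0.584 and 0.441 in the lymphoid libraries (log2 difference 1.76), from about 25 tumour fragments. Ptgdr passed the filter of a mean of 1 FPKM only through its tumour value, so nothing is read from its call. Ptgir, which encodes the prostacyclin receptor, was at 2.02, against 0.280 and 0.536, and lay below the filter for testing. Of the summed FPKM of these 4 receptors, Ptger4 held 55.9% in the tumour library, against 88.8% and 87.4% in the lymphoid ones, and Ptgdr held 20.8%, against 2.61% and 2.02%. The sum of the 4 receptors was 19.8 scaled FPKM in the tumour library, against 22.4 and 21.8 in the lymphoid ones.

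The phosphodiesterase genes differed in make-up, whatever the scaling, while the difference of their sum depended on it. The 16 genes whose products hydrolyse cAMP summed to 87.0 scaled FPKM in the tumour library, against 83.3 and 81.0 in the lymphoid libraries, and as deposited to 50.4 FPKM, against 107.8 and 108.03. Pde4d (ENSMUSG00000021699.17, chromosome 13, 108449948 to 109953461), a cAMP-specific enzyme, was at 11.4 scaled FPKM in the tumour library, against 2.44 and 2.32 in the lymphoid libraries. Its log2 difference was 1.88, rank 273, and the lymphoid libraries differed by 0.05. At the median transcript length, about 49 tumour fragments give a counting interval of 8.52 to 15.2, which lay above both lymphoid values. Over the annotated lengths the fragments ran from 37.3 to 91.0. Pde4b (ENSMUSG00000028525.16, chromosome 4, 102087543 to 102607259), the PDE4 gene known for its induction by T cell receptor signals, was at 17.7 scaled FPKM in the tumour library, against 10.3 and 11.1 in the lymphoid libraries. The Pde4b interval was 14.0 to 21.9, from about 81 fragments at the median transcript length, and between 27.6 and 144 over the annotated lengths.

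Pde3b, which encodes a phosphodiesterase inhibited by cGMP, was lower in the tumour library in scaled values and slightly higher with library totals. Pde3b (ENSMUSG00000030671.9, chromosome 7, 114415281 to 114539251) was at 21.6 scaled FPKM in the tumour library, against 33.6 and 33.7 in the lymphoid libraries, a log2 difference of -0.62. With about 269 fragments at the median transcript length, its interval of 19.1 to 24.3 lay below both lymphoid values. Within a library, Pde3b held 24.8% of the summed phosphodiesterase FPKM in the tumour library, against 40.3% and 41.6% in the lymphoid libraries. Pde4d held 13.1%, against 2.92% and 2.87%, and Pde4b held 20.3%, against 12.3% and 13.7%. The ratio of Pde4d to Pde3b was 0.529 in the tumour library, against 0.0725 and 0.0689 in the lymphoid ones. Pde7a, an abundant cAMP-specific enzyme gene outside the 9, held 21.2%, against 22.2% and 22.1%.

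**Figure D2:**
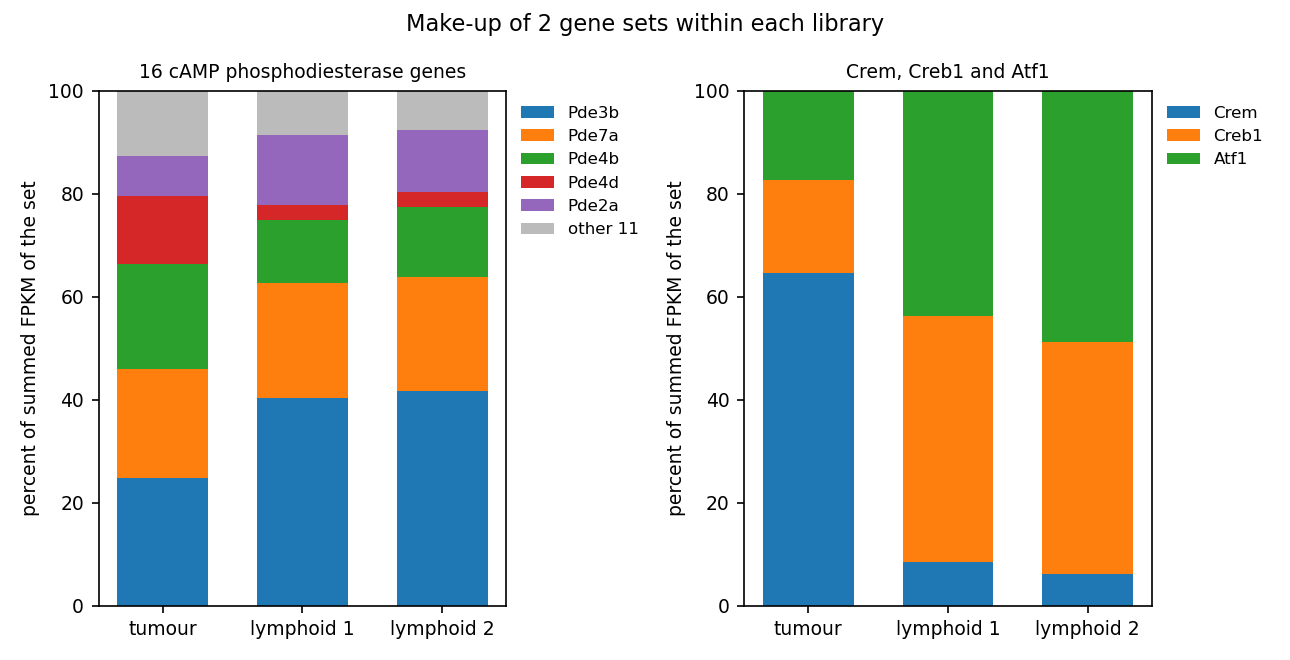
Share of summed FPKM (percent) held by each gene within each library, for the 16 cAMP phosphodiesterase genes (left) and for Crem, Creb1 and Atf1 (right). Pde3b takes a smaller and Pde4b and Pde4d a larger share in the tumour library than in either lymphoid library, while Pde7a is near 21.2% to 22.2% throughout, and Crem takes 64.6% of its set in tumour.

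Of the protein kinase A genes, Prkar1a was level in scaled values, while the catalytic subunit genes lay below both lymphoid libraries without being called. Prkar1a encodes the main type I regulatory subunit of protein kinase A, which holds the catalytic subunits inactive until cAMP binds. Prkar1a (ENSMUSG00000020612.16, chromosome 11, 109649405 to 109669656) was at 40.9 scaled FPKM in the tumour library, against 40.5 and 40.7 in the lymphoid libraries. At the median transcript length, its counting interval was 36.0 to 46.1 from about 260 fragments, which ran from 74.6 to 272 over the annotated lengths. Prkar1a was the most abundant of the regulatory subunit genes. It held 88.1% of the summed FPKM of the 4 regulatory subunit genes in the tumour library, against 90.3% and 91.7%. Prkacb, the most abundant catalytic subunit gene, was at 22.4 scaled FPKM in the tumour library, against 27.2 and 25.1, and was not called (limma adjusted p = 0.428).

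Set in order of scaled FPKM, the tumour library ran from Prkar1a (40.9) through Crem (34.7), Ramp3 (26.4), Pde3b (21.6), Pde4b (17.7), Pde4d (11.4), Ptger4 (11.1) and Creb1 (9.74) to Ptger2 (2.61). At the median transcript lengths, neighbours in that order had overlapping counting intervals down to Creb1, and Ptger2 lay apart. For Creb1 the tumour fragments ran from 23.2 to 154 over the annotated lengths. The lymphoid means ran from Prkar1a (40.6 ± 0.146, SD, n = 2) through Pde3b (33.7 ± 0.0708), Ptger4 (19.5 ± 0.573), Pde4b (10.7 ± 0.546), Creb1 (9.48 ± 1.31), Pde4d (2.38 ± 0.0809), Ptger2 (1.71 ± 0.0970) and Crem (1.52 ± 0.479) to Ramp3 (0.559 ± 0.0308). Of these neighbours, Pde4b and Creb1 lay within their spread, as did Ptger2 and Crem. By a rule of at least 2-fold on scaled FPKM + 1 against each lymphoid library, 3 of the 9 genes were higher, namely Crem, Ramp3 and Pde4d, and 0 were lower. Among all tested genes that rule took 6.28% as higher and 2.82% as lower. The 9 were chosen on this contrast, so nothing is read from the count.

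**Figure D3:**
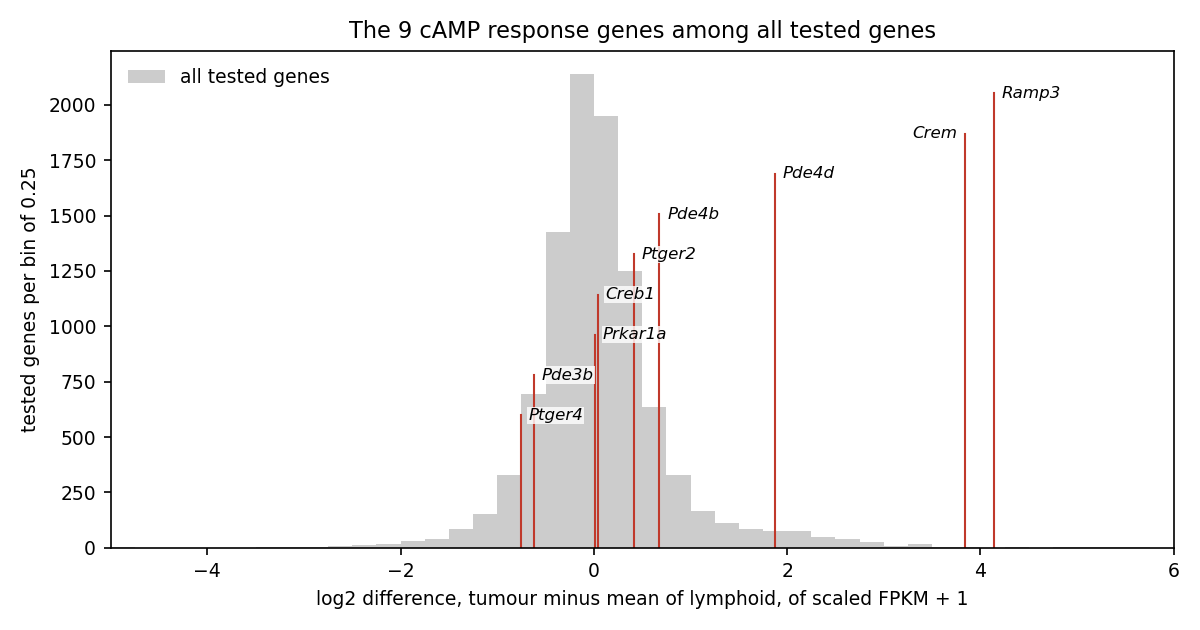
Log2 difference of scaled FPKM + 1, tumour minus the mean of lymphoid, for all 9800 tested genes (grey bars, genes per bin of 0.25) and for the 9 genes (red lines, whose heights only separate the names). Ramp3 (4.14) and Crem (3.84) lie in the far right tail, Pde4d (1.88) in the right tail, and Creb1 and Prkar1a near 0.

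The direction of Crem, Ramp3 and Pde4d was the same under every scaling tried, and Ptger4 was lower under every one, while the other 5 genes changed sign under at least 1 of them. As deposited, the log2 differences were 2.83 for Crem, 3.23 for Ramp3 and 0.88 for Pde4d. With library totals they were 4.45, 4.70 and 2.51. Ptger4 was at -1.84 as deposited and at -0.07 with library totals. Pde4b and Ptger2 were lower as deposited (-0.42 and -0.37), and Pde3b was higher with library totals (0.10). Creb1 and Prkar1a, near 0 in scaled values, followed the scaling, at -1.01 and -1.14 as deposited and 0.72 and 0.74 with library totals.

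**Figure D4:**
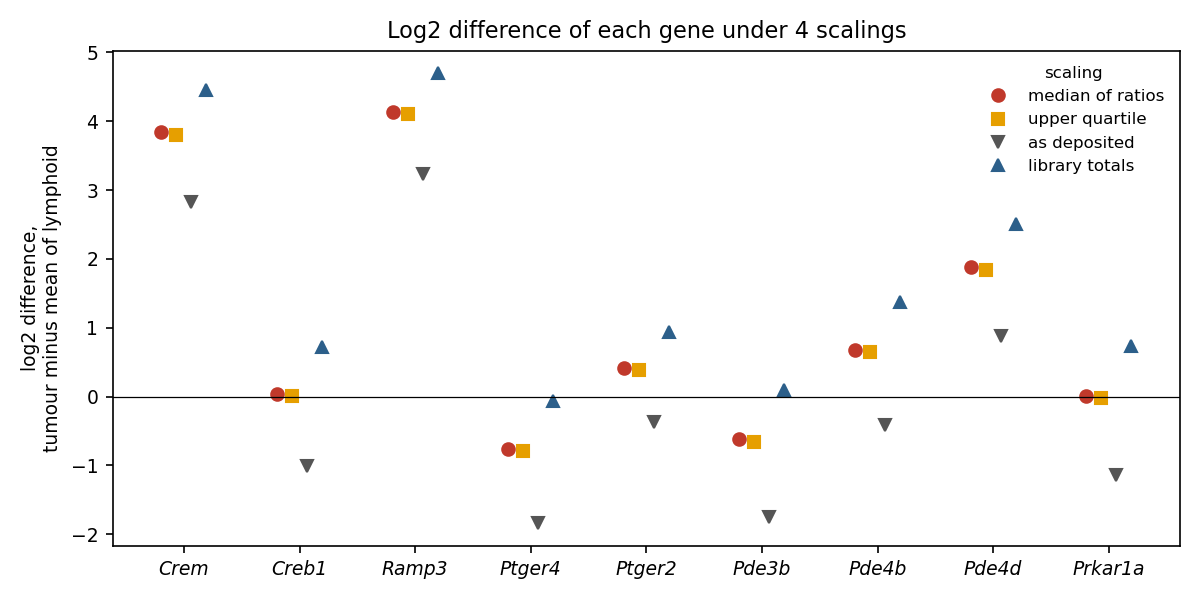
Log2 difference of each of the 9 genes, tumour minus the mean of lymphoid, under 4 scalings of the libraries (symbols). Crem, Ramp3 and Pde4d stay above 0 and Ptger4 stays below 0 under all 4, while Pde4b, Ptger2, Creb1 and Prkar1a fall below 0 as deposited and Pde3b is at 0.10 with library totals.

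Most tested genes of the wider pathway were not called. The 13 lists of receptors, G proteins, cyclases, kinase subunits, anchors, phosphodiesterases, CREB proteins and their targets held 126 genes beyond the 9, of which 62 passed the filter of a mean of at least 1 FPKM. Of the 62 tested genes, 7 were called higher (11.3%) and 1 lower (1.61%) by limma with Benjamini-Hochberg adjustment over all tested genes. Ptgdr, 1 of the 7, entered only through the tumour library, and without such genes 6 of 61 pathway genes were called higher (9.84%), against 1014 of 9568 of all genes (10.6%). Among all 9800 tested genes, 12.7% were called higher and 9.17% lower, so the share of higher calls in the pathway was near the background. With 1 residual degree of freedom, the fit takes the single tumour library to vary like the lymphoid ones. When the counting error of the tumour value was added, 5 of the 7 higher calls were left and 0 lower ones, against a background of 3.21% higher and 0.175% lower. As deposited, 5 pathway genes were called higher and 47 lower, against a background of 4.74% higher and 77.8% lower. With library totals 24 were called higher and 1 lower, against 42.1% and 2.94%. The median log2 difference of the 62 genes was -0.01, as for all tested genes.

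Of the 7 higher calls, 5 were in the list of textbook CREB target genes, which had 5 higher, 0 lower and 5 uncalled among 10 tested genes beyond the 9. Among all tested genes 12.7% were called higher. The list was drawn up with some of these values known, so nothing is read from its counts or its median. Nr4a1, an immediate-early nuclear receptor (ENSMUSG00000023034.7), was at 29.0 scaled FPKM in the tumour library, against 2.13 and 2.37 in the lymphoid libraries, and rose by 3.21 on the log2 scale (limma adjusted p = 0.000486). Nr4a3, a relative of Nr4a1, was at 20.4, against 2.33 and 2.44, and rose by 2.66 (limma adjusted p = 0.000634). Both are induced by T cell receptor signals as well as by cAMP. Sik1 encodes a salt-inducible kinase that holds CREB coactivators out of the nucleus, and is itself a CREB target. Sik1 was at 11.8 scaled FPKM in the tumour library, against 1.33 and 1.38 in the lymphoid libraries, a log2 difference of 2.44 with SE 0.14 (limma adjusted p = 0.000769, and 0.00635 with counting error). Its relatives Sik2 and Sik3 were not called. Rgs2, a regulator of G protein signalling, was at 19.5, against 4.34 and 3.74, and rose by 2.03 (limma adjusted p = 0.00134). Per1, a clock gene, was at 6.43, against 3.26 and 2.83 (log2 difference 0.88). Its call ended with counting error (limma adjusted p = 0.156), and as deposited its log2 difference was -0.08. Fos was at 14.1 scaled FPKM in the tumour library, against 18.4 and 26.6 in the lymphoid ones, Fosb at 7.74, against 8.25 and 7.55, and Dusp1 at 18.3, against 19.7 and 19.6, and these 3 targets were not called. Of the 8 called pathway genes, 5 had a start in the promoter table, and Nr4a1, Nr4a3, Per1 and Rgs2 held a core in their windows while Ptgdr held none. The 4 with a core are all from the CREB target list, and uncalled targets outside the 9 were not looked up. Nothing is therefore read from this count. The median log2 difference of the 10 tested targets was 0.66, against -0.01 for all tested genes.

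**Figure D5:**
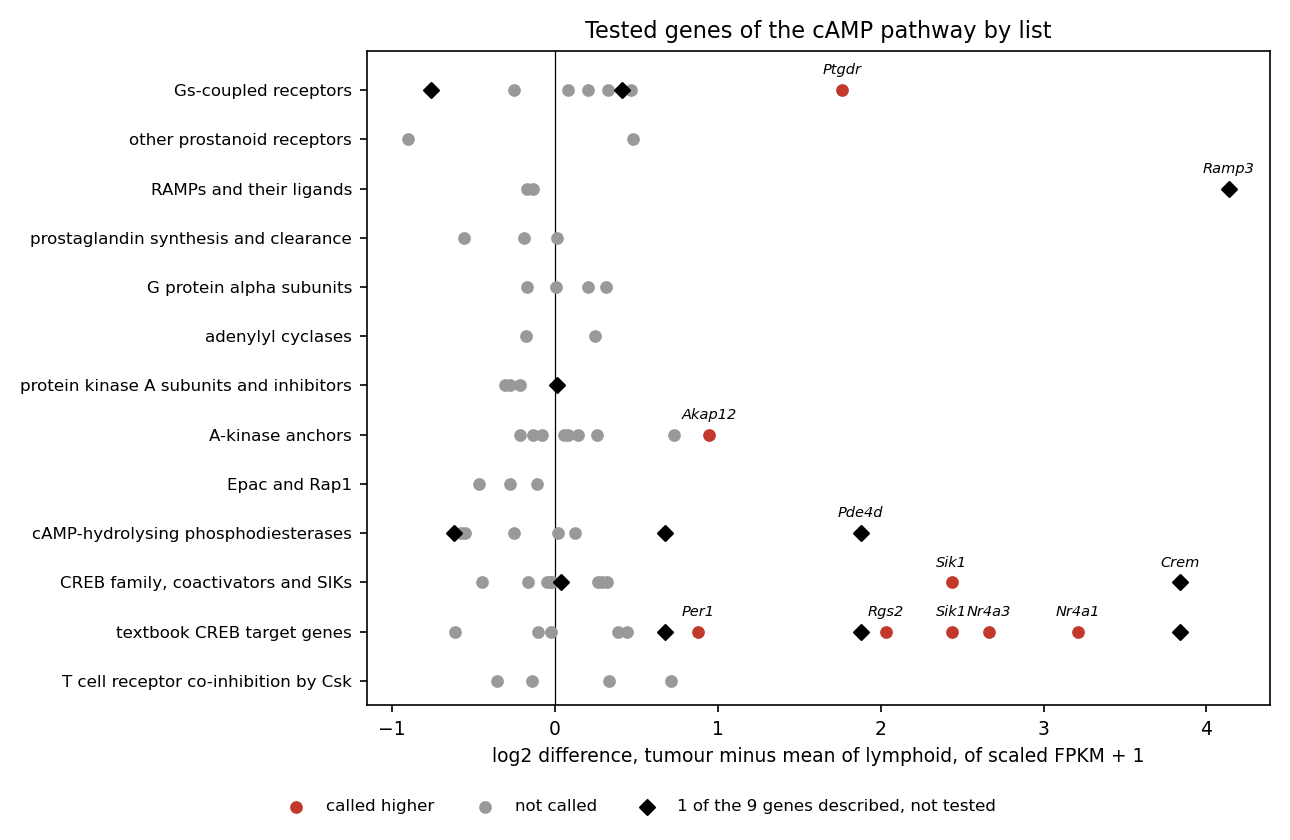
Log2 difference of scaled FPKM + 1, tumour minus the mean of lymphoid, for each tested gene of the 13 pathway lists (rows), coloured by the call of limma, without the 1 gene called lower and with the 9 untested genes as black diamonds. Most grey points lie near 0. A gene in more than 1 list, such as Sik1, is drawn in each. The CREB target list was drawn up with some of these values known, so nothing is read from where the red points lie.

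Upstream of the kinase, no Gs-coupled receptor gene was called higher among those tested beyond Ptger4 and Ptger2, apart from Ptgdr, which entered through its tumour value. Adora2a, the adenosine receptor gene linked to suppression of T cells in tumours, was at 7.03, against 6.41 and 5.56, and was not called. Gnas, which encodes the Gs alpha subunit, was at 71.8, against 70.7 and 72.2, and Adcy7, the most abundant cyclase gene, at 22.8, against 25.7 and 26.1. Ptger1, the most abundant of the prostanoid receptor genes not coupled to Gs, was at 14.2, against 8.93 and 11.01. Ptges3, a prostaglandin E synthase gene, was at 26.3, against 39.9 and 38.4, and Rap1b, a target of the cAMP sensor Epac, at 64.6, against 72.6 and 66.8. Of 4 G protein, 2 cyclase, 3 kinase subunit, 3 Epac and Rap1, 5 phosphodiesterase and 3 prostaglandin synthesis and clearance genes tested beyond the 9, 0 were called, against 12.7% higher and 9.17% lower among all tested genes. These 6 lists are among those without a called gene, so nothing is read from the 0. At an unadjusted p under 0.05 limma gave 0 higher and 4 lower among those 20 genes, namely Pde1b, Pde2a, Ptges3 and Rap1a, chosen here by that result. Among all tested genes that threshold took 19.8% as higher and 17.2% as lower. With counting error 0 of the 20 were called. Akap12, an anchor of protein kinase A, was at 3.44, against 1.24 and 1.37 (log2 difference 0.95, limma adjusted p = 0.0122), and lost its call with counting error (limma adjusted p = 0.139) and as deposited (log2 difference 0.14). Csk, the kinase through which protein kinase A restrains Lck, was at 27.0, against 33.6 and 36.3, and was not called (limma adjusted p = 0.212). Lck, the kinase that starts T cell receptor signalling, was at 80.5, against 85.9 and 92.0.

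By distance over the 3 libraries in log2(scaled FPKM + 1), after each gene's mean was taken off, the tested gene nearest to Crem was Cplx2, at 87.9 scaled FPKM in the tumour library and 7.10 and 4.56 in the lymphoid ones (distance 0.14). Mir682 and Cxcr4 followed (0.29 and 0.31). Nearest to Ramp3 were Mir682 (0.17), Mir501 (0.18) and 3110015C05Rik (0.23). Mir682 and Mir501 are small RNA genes that were listed at 0 in both lymphoid libraries. With 3 libraries the measure ranks mostly the size of the tumour difference.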

How the data were processed

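RNA of CD4+ T cells labelled Th1 was sequenced in 1 tumour and 2 lymphoid libraries, from ribosome-depleted, stranded, paired-end preparations per the labels' protocols. The deposited files hold 1 value per gene row and name no unit. The values are taken here as FPKM from their decimals, their unequal sums and a column name in the style of Cufflinks per the file headers, while the submitters' processing notes list kallisto, DESeq2 and mm10 without saying which made these files. Where a symbol had more than 1 row, only the row with the largest mean entered.

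Values were divided by median-of-ratios factors. limma 3.58.1 (R 4.3.3) with a trend was run on log2(scaled FPKM + 1) for the 9800 symbols that averaged 1 FPKM or more, using Benjamini-Hochberg adjustment over all of them and calls at an adjusted p under 0.05. A second fit added the counting error of the estimated fragments. The pseudocount makes differences of low genes smaller. Depth was estimated from the step, value times transcript length, that most low genes shared (112 genes in the tumour library, 109 and 131 in the lymphoid ones), and was 3270000 fragments in the tumour library and 11460000 and 15630000 in the lymphoid ones, so tumour values are the least precise. Exact Poisson intervals cover counting error only, at the median transcript length of each gene. Gene positions are from GENCODE on GRCm38, which matched 21705 of 23337 symbols directly and 1270 more through an older symbol. Promoters are from RefSeq on GRCm38.p6.

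The 9 genes and all lists were chosen with earlier results of these data known. The text names the 9 genes, each called pathway gene, the tested gene with the highest mean of each other list, and the 3 tested genes nearest to Crem and to Ramp3; other listed genes are given as levels. The 1 pathway gene called lower is counted but not reported here. Other scalings, filters, pseudocounts and left-out lymphoid libraries were tried as alternatives.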

Additional observations from a re-analysis of the deposited data

How the results depend on the processing

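By limma on scaled values, 1246 of 9800 tested genes were called higher and 899 lower, and 7 and 1 of 62 pathway genes. As deposited, the counts were 465 higher and 7620 lower over all genes, and 47 lower in the pathway. With library totals they were 4122 and 288 over all genes, and 24 higher in the pathway. Without a filter 7364 of 20968 genes were higher (35.1%), with 47 of 121 higher (38.8%) and 0 lower in the pathway. With a mean of at least 5 FPKM, which tests fewer genes, the counts were 211 and 191 of 5112 genes, and 3 and 0 of 39 in the pathway. With counting error they were 312 and 17 over all genes and 0 lower in the pathway, and by the 2-fold rule 615 and 276 over all genes. With the level of silent receptor genes subtracted, an alternative chosen after seeing the data, 2 pathway genes were lower. Leaving out 1 lymphoid library under the 2-fold rule gave 694 to 710 higher and 374 to 384 lower over all genes, and 5 to 6 higher and 1 to 2 lower in the pathway. The tumour library cannot be left out. Upper-quartile scaling and pseudocounts of 0.1 and 5 left 7 and 1 pathway calls.

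Of the 9 genes, Ptger2 (-0.37), Pde4b (-0.42), Creb1 (-1.01) and Prkar1a (-1.14) had a negative log2 difference as deposited. Creb1 ran from -0.087 to 0.17 with either lymphoid library left out, and Prkar1a was at -0.026 with the upper quartile and Pde3b was at 0.10 with library totals. Over all alternatives the log2 difference ran from 2.61 to 4.46 for Crem, 2.50 to 5.33 for Ramp3, 0.88 to 2.51 for Pde4d and -1.84 to -0.07 for Ptger4. Apart from the fewer genes and samples named, the cause was not tested. No paired analysis was possible because the tumour group holds 1 library and carries no replicate number. Depth limits Ptger2 and the lymphoid values of Ramp3 most.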

Other observations

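Most untested genes above 0 in some library had a scaled tumour value above both lymphoid values, within the pathway and beyond it. Of 59 such pathway genes, 50 (84.7%) did. The share was 72.4% over all 11168 untested genes above 0 and 52.7% over 1065 odorant and vomeronasal receptor genes. In FPKM times transcript length, 1 fragment was worth 306 in the tumour library, against 87.3 and 64.0 in the lymphoid ones. The part of this in the shares was not tested, so nothing is read from them. Nr4a2, a relative of Nr4a1, was at 3.28 scaled FPKM in the tumour library, against 0.126 and 0.119 in the lymphoid ones. Areg, which encodes amphiregulin, was at 1.83, against 0.118 and 0.0843, and Prkar1b, a regulatory subunit gene of protein kinase A, was at 1.99 in the tumour library, against 0.0256 in 1 lymphoid library, and was listed at 0 in the other. About 21.3 tumour fragments stand behind Nr4a2, about 4.2 behind Areg and about 9.9 behind Prkar1b.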
